A study of Mus musculus with 8 samples.

Results

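The 37 genes described here encode laminin chains, nidogens, basement membrane proteoglycans, dystroglycan, integrin subunits and syndecans, the proteins that build the basement membrane and hold cells to it. They were taken by gene symbol from a table of 20943 genes, and all 37 were present and tested. The table covers poly-A RNA sequencing of 8 malignant nerve sheath tumors (MPNST) from mice, a sarcoma that arises from Schwann lineage cells. All tumors arose in mice with floxed Nf1 and Cdkn2a and the Plp-CreERT transgene, a tamoxifen-inducible recombinase driven by the promoter of the myelin gene Plp, and all mice were given tamoxifen, 0.4 mg, from the day of birth (day 0) to day 3. The 5 tumors of the PRC2 wildtype group had the genotype Nf1(-/-) Cdkn2a(-/-), and the 3 tumors of the PRC2 loss group carried floxed Eed as well. Eed is a core component of PRC2, the Polycomb complex that methylates histone H3. The titles call all 8 samples MPNST. The descriptions of PRC2 loss tumors 1, 2 and 3 give a nerve and not the word tumor. They name a right paraspinal nerve for tumor 1. For tumors 2 and 3 they name the left and the right sciatic nerve of a single animal code. The descriptions of the 5 wildtype samples say tumor and name no nerve. Tumor site, or any share of nerve tissue in a sample, and PRC2 status therefore cannot be told apart here. The codes of wildtype tumors 1 and 2 share a stem, as do those of wildtype tumors 3 and 4, so there are 3 wildtype and 2 PRC2 loss code stems. Tests treat the 8 tumors as independent, and p-values are too small if a shared stem marks a shared mouse. Values are the authors' quantile-normalized log2 gene counts, and sequencing depth is unknown.

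Laminins are trimers of an alpha, a beta and a gamma chain that polymerise on the cell surface into the sheet of the basement membrane, to which nidogens, perlecan and agrin bind. Schwann cells lay down a basement membrane along the axons they wrap, rich in the laminin alpha2 and alpha4 chains, and read it through integrins (alpha6beta1 early, alpha6beta4 and alpha7beta1 later) and through dystroglycan. Integrins are pairs of an alpha and a beta subunit, and the alpha subunit largely sets whether the pair binds laminin, collagen or RGD-bearing matrix proteins such as fibronectin. Syndecans are membrane proteoglycans whose heparan sulfate chains bind matrix and growth factors.

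Eed was 10.32, 10.33, 10.17, 10.19 and 10.23 in wildtype tumors 1 to 5 and 8.76, 8.93 and 8.96 in PRC2 loss tumors 1 to 3, 2.57-fold lower in PRC2 loss (limma adjusted p = 0.00021). The genes floxed in both groups did not pass the test. Nf1 was 11.11 ± 0.26 (SD, n = 5) in the wildtype group and 11.29 ± 0.17 (SD, n = 3) in the PRC2 loss group (limma adjusted p = 0.452). Cdkn2a was 7.43 to 8.17 in wildtype but 10.58 in PRC2 loss tumor 1, higher again in tumor 2 and 5.67 in tumor 3 (limma adjusted p = 0.351), so PRC2 loss tumors 1 and 2 were above and tumor 3 below all wildtype tumors. The table gives whole-gene values, which do not show how much of a floxed allele was deleted. The mean over 14 myelinating Schwann cell markers was 5.48 to 7.27 in wildtype tumors and 11.95 to 12.55 in PRC2 loss tumors, with 13 of 14 higher. Of 15 endothelial markers 12 were higher and none was at 0 in any tumor, with list means of 9.57 to 10.27 against 11.29 to 12.41. Skeletal muscle markers stood apart in wildtype tumors 1 and 2, with means of 11.69 and 11.10 against 4.22 to 5.59 in wildtype tumors 3 to 5 and 4.57, 5.91 and 8.88 in PRC2 loss. All 12 proliferation genes were lower in PRC2 loss. Of 8 markers of perineurial cells, which wrap nerve fascicles and carry a basement membrane of their own, 5 were higher and 1 lower, with means of 5.91 to 7.15 against 8.42 to 9.17. Lypd2 was at 0 in 3 wildtype tumors, Dleu7 in 2 and Sfrp5 in 1, and none of the 8 was at 0 in PRC2 loss. In bulk tumors, fewer cells of a type and less RNA per cell cannot be told apart. Apart from fits with a skeletal muscle covariate, the part of these marker differences in the results that follow was not tested.

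**Figure D1:**
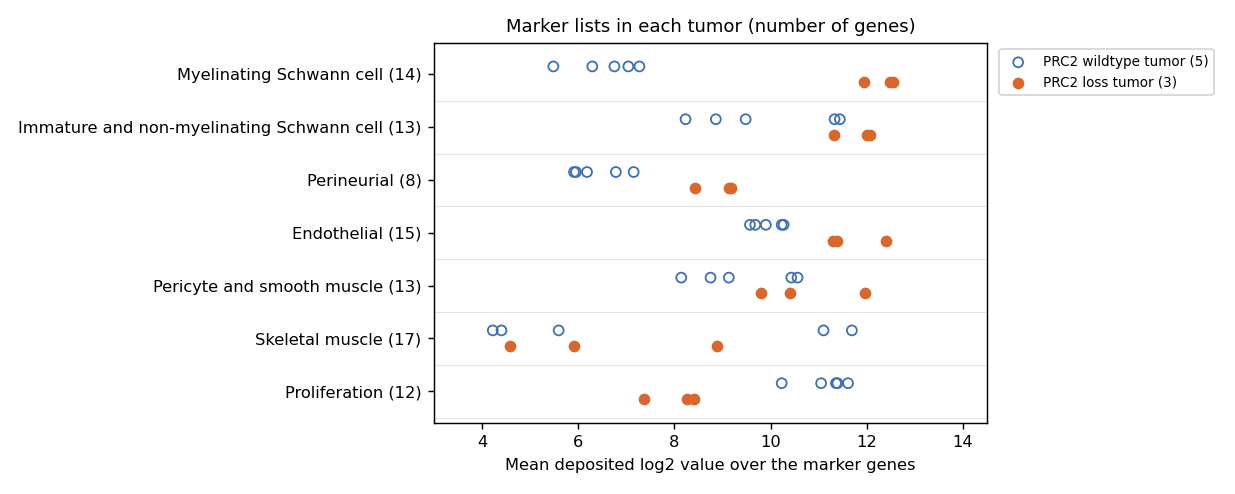
Mean deposited log2 value over the genes of 7 marker lists in each tumor, with open circles for the 5 wildtype and filled circles for the 3 PRC2 loss tumors. The myelinating Schwann cell means sit at 5.48 to 7.27 in wildtype and 11.95 to 12.55 in PRC2 loss, and wildtype tumors 1 and 2 stand at 11.69 and 11.10 on the skeletal muscle list.

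Of the 37 genes, 14 (37.8%) rose in PRC2 loss, 3 (8.11%) fell and 20 did not pass, by limma with adjustment over all 20807 genes tested. Over all genes tested, 16% rose and 19.6% fell, 35.7% in either direction. The median log2 difference (PRC2 loss minus wildtype) was 0.61 over the 37 genes and -0.12 over all genes. The groups did not overlap for 12 genes higher and 4 genes lower in PRC2 loss, where 16.9% and 21.4% of all genes were separated in those directions and 38.3% in either. The 4 were the 3 that fell and Itgb6, which had low values and did not pass. Of the 10 laminin chains 5 rose and none fell, of the 12 integrin alpha subunits 4 rose and 2 fell, of the 6 integrin beta subunits 1 rose, and of the 4 syndecans 2 rose and 1 fell. Centring each tumor on housekeeping genes, 8 of 15 of which were lower in PRC2 loss, moved the median of all genes from -0.12 to 0.41, and then 21 of the 37 genes were higher and 1 lower, so that 95.5% of calls were higher against 82.4%. The calls of 7 genes, all higher, held in each of 21 alternative analyses: Lama2, Lamb2, Nid2, Itga6, Itga7, Itga9 and Itga10. The call of Lama3, also higher, held in the 20 that tested it, since the filter on low values removed it from the other.

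**Figure D2:**
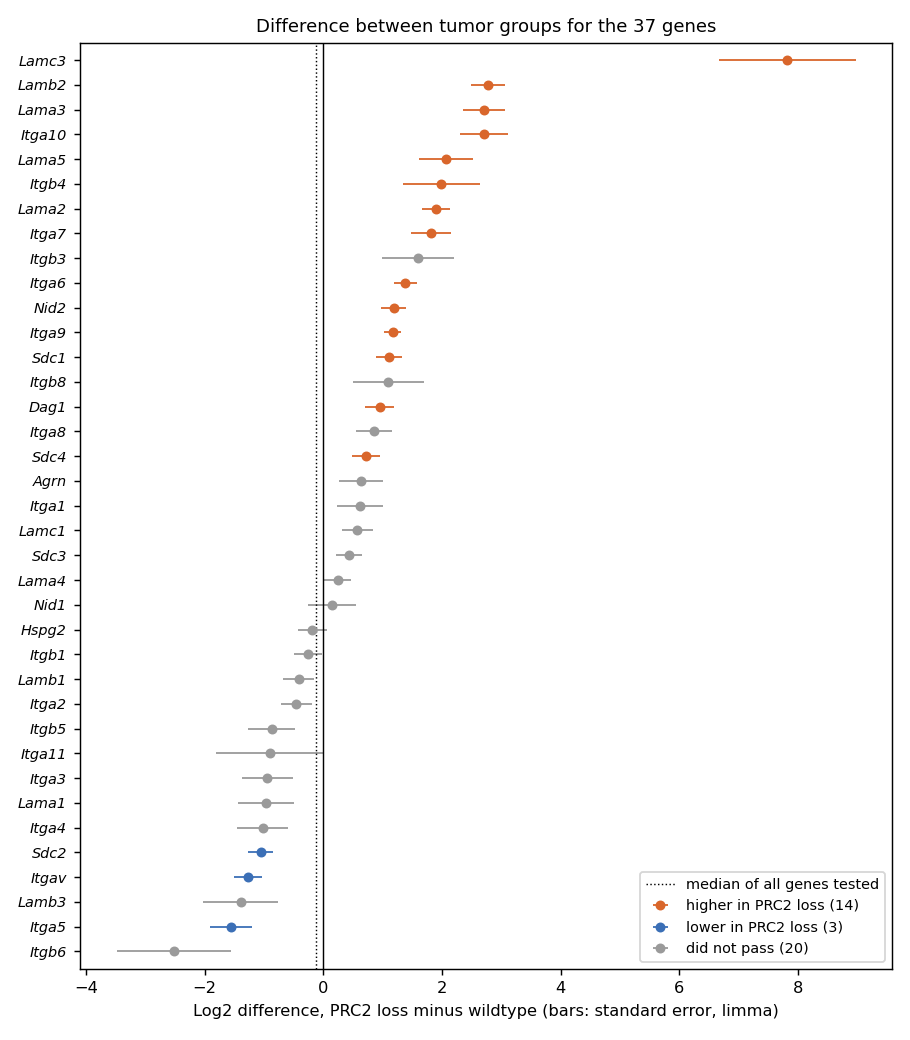
Log2 difference between PRC2 loss and wildtype means for each of the 37 genes, with bars for the standard error from limma and the dotted line for the median of all genes tested (-0.12). Lamc3 lies far to the right at 7.82, and the 3 genes in blue (Sdc2, Itgav and Itga5) passed the test with lower values in PRC2 loss.

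Among the laminin alpha chains Lama2, Lama3 and Lama5 rose in PRC2 loss, and Lama1 and Lama4 did not pass. Lama2 (chr10:26980036-27619758, mm10, minus strand) encodes the alpha2 chain of the Schwann cell and muscle basement membrane. Its values were 12.30, 13.10, 12.35, 13.00 and 12.48 in wildtype tumors 1 to 5 and 14.80, 14.62 and 14.22 in PRC2 loss tumors 1 to 3. Every PRC2 loss tumor was above every wildtype tumor. The means were, in that order, 12.65 ± 0.37 (SD, n = 5) and 14.55 ± 0.30 (SD, n = 3), 3.73-fold higher in PRC2 loss (log2 difference 1.90, SE 0.24, limma adjusted p = 0.000886). A fold here is 2 raised to the difference of deposited log2 values. An offset added before the log would make it understate the change of genes with low values, and the offset is not stated.

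Lama5 (chr2:180176373-180225859, mm10, minus strand) encodes the alpha5 chain, common in vessel walls and epithelia. It was 10.70, 10.49, 9.64, 9.08 and 9.25 in wildtype tumors 1 to 5 and 11.46, 11.53 and 12.71 in PRC2 loss, with no overlap and the highest value in PRC2 loss tumor 3. The difference was 4.19-fold (log2 difference 2.07, SE 0.45, limma adjusted p = 0.00899). The call was lost with the replicate number as a block (limma adjusted p = 0.135). PRC2 loss tumor 3 also had the highest endothelial marker mean of the 8 tumors (12.41) and the highest pericyte and smooth muscle mean (11.96) among PRC2 loss tumors. Lama3, the alpha3 chain of epithelial laminins, was 6.96, 7.33, 7.87, 7.56 and 7.09 in wildtype and 10.21, 9.28 and 10.73 in PRC2 loss, 6.56-fold higher without overlap (limma adjusted p = 0.00104). Of 15 epithelial markers 2 were higher (13.3%) and 3 lower (20%), near the shares of all genes (16% and 19.6%). Their means were 3.02 to 3.21 in PRC2 loss and 2.30 to 6.61 in wildtype, and 9 of the 15 were at 0 in some tumor. Which cells carried Lama3 was not tested.

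Lama4, the alpha4 chain of immature Schwann cell and vessel laminins, was 12.41 to 13.36 in wildtype and 12.71 to 13.26 in PRC2 loss, with overlapping groups (log2 difference 0.24, limma adjusted p = 0.453). Lama1, the alpha1 chain of embryonic basement membranes, was low in all tumors, at 5.00 to 6.16 in wildtype and 3.97 to 5.23 in PRC2 loss (log2 difference -0.97, limma adjusted p = 0.141). Divided by exon length, the mean log2 level of Lama4 (9.25) was above that of Lama2 (8.62) in wildtype, and Lama2 (10.52) was above Lama4 (9.49) in PRC2 loss. As a share of the 5 alpha chains per kb of exon, Lama4 made up 58.3%, 44.9%, 67.6%, 44.3% and 57.5% in wildtype tumors 1 to 5 and 20.9%, 30.4% and 29.9% in PRC2 loss. Lama2 made up 35.9% ± 10.3 (SD, n = 5) and 55.3% ± 11.6 (SD, n = 3), and these shares overlapped because PRC2 loss tumor 3 stood at 42.7%, below wildtype tumors 2 (43.3%) and 4 (49.0%). Lama5 made up 7.70% ± 3.62 (SD, n = 5) and 13.5% ± 6.97 (SD, n = 3), or 4.32% and 8.25% when the longest transcript was taken as the gene length.

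Within a tumor, the difference of the log2 values of Lama2 and Lama4 averaged -0.19 ± 0.68 (SD, n = 5) in the wildtype group and 1.47 ± 0.57 (SD, n = 3) in the PRC2 loss group, a 3.16-fold shift towards Lama2. A two-sided exact permutation test gave p = 0.0357, and adjusted over the 8 ratios tested p = 0.0714. The difference of Lama4 and Lama5 moved from 3.01 ± 0.71 (SD, n = 5) to 1.18 ± 0.59 (SD, n = 3), with the same exact permutation p of 0.0357 and adjusted p of 0.0714. Lama2 against Lama5 differed by -0.17 between the groups (exact permutation p = 0.821). The smallest p that 56 splits of the tumors allow is 0.0179, and none of the 8 ratios passed after adjustment.

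**Figure D3:**
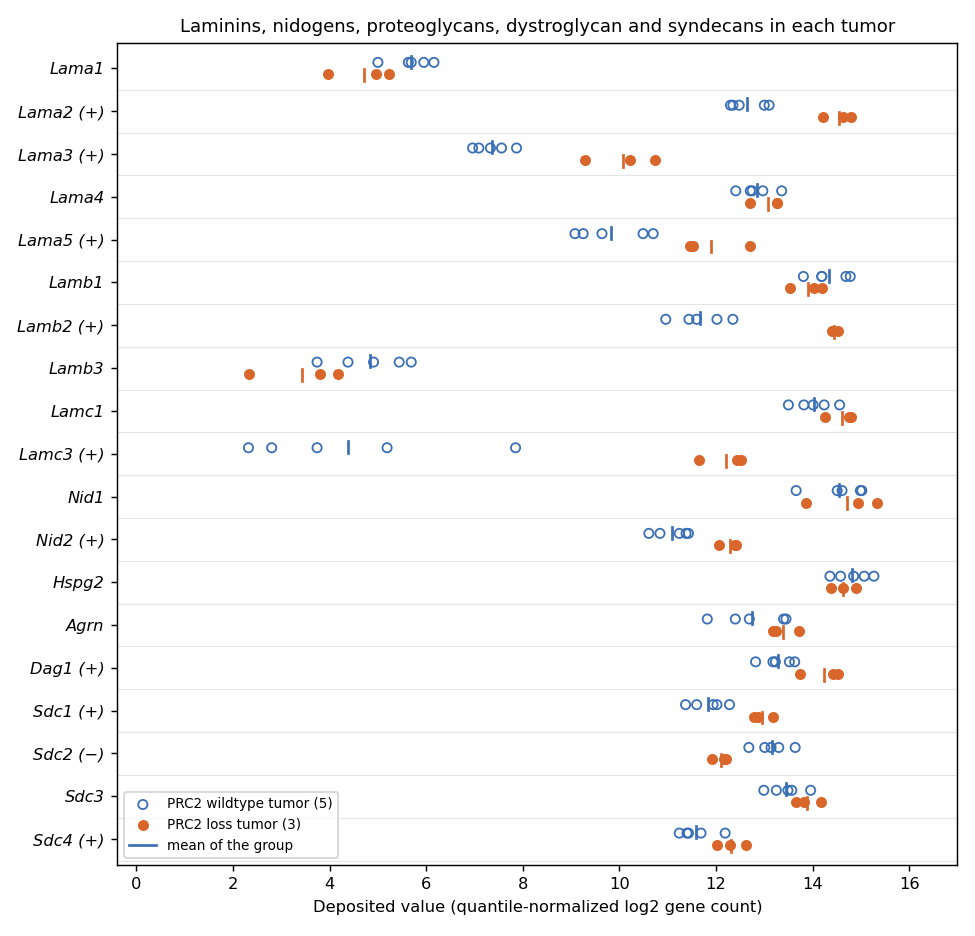
Deposited log2 values of the laminin chains, nidogens, proteoglycans, dystroglycan and syndecans, with open circles for wildtype tumors, filled circles for PRC2 loss tumors, vertical ticks for group means, and (+) or (−) for genes that passed higher or lower in PRC2 loss. Lamb2 shows 3 PRC2 loss tumors at 14.41 to 14.52 above all wildtype tumors, and Lamc3 separates the groups by the widest gap.

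Of the beta chains, Lamb2 rose in PRC2 loss, and Lamb1 and Lamb3 did not pass. Lamb2 (chr9:108479736-108490530, mm10, plus strand) encodes the beta2 chain, found at neuromuscular junctions and in mature nerve and vessels. It was 12.02, 12.35, 11.60, 10.96 and 11.44 in wildtype and 14.41, 14.42 and 14.52 in PRC2 loss. The 3 PRC2 loss tumors lay within 0.11 log2 units of each other and above every wildtype tumor, 6.87-fold higher (log2 difference 2.78, SE 0.29, limma adjusted p = 0.000416). Lamb1 (chr12:31265234-31329644, mm10, plus strand), the widespread beta1 chain, was 14.19, 13.81, 14.78, 14.19 and 14.69 in wildtype and 14.19, 14.02 and 13.53 in PRC2 loss, with overlapping groups (log2 difference -0.42, limma adjusted p = 0.247). Lamb3, the beta chain of epithelial laminins, was 3.74 to 5.69 in wildtype and 2.34 to 4.18 in PRC2 loss (limma adjusted p = 0.12).

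Per kb of exon, Lamb2 made up 26.6%, 37.1%, 15.2%, 14.7% and 14.6% of the 3 beta chains in wildtype tumors 1 to 5 and 65.6%, 68.3% and 76.4% in PRC2 loss. Lamb1 made up 62.8% to 85.4% of the total in wildtype and 23.6% to 34.4% in PRC2 loss. Lamb1 was thus the leading beta chain in each wildtype tumor and Lamb2 in each PRC2 loss tumor. Per kb of the longest transcript, Lamb2 made up 54.5%, 57.6% and 67.1% in PRC2 loss tumors 1 to 3 and 9.69% to 27.1% in wildtype. The leading chain stayed the same, with a narrower lead of Lamb2 in PRC2 loss. The log2 value of Lamb2 minus that of Lamb1 was -2.16, -1.46, -3.18, -3.23 and -3.26 in wildtype and 0.22, 0.40 and 0.99 in PRC2 loss. These values do not overlap, with wildtype tumors 1 and 2 nearest to the PRC2 loss tumors. The shift was 9.19-fold (exact permutation p = 0.0179, adjusted over 8 ratios p = 0.0714).

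The sequences just upstream of these chains are shown because the pair changed places. Both are RefSeq sequences of GRCm38.p6, 5′ to 3′ on the plus strand, ending at the last base before the annotated gene, with CpG dinucleotides in capitals. The Lamb1 stretch is chr12:31265043-31265233 and holds 10 CpG in 191 bases. The Lamb2 stretch is chr9:108479612-108479735 and holds 1 CpG in 124 bases. In windows of 250 bases before the RefSeq start, the counts were 14 and 3, against a median of 6 (quartiles 2 and 16) over all 32851 mouse windows. CpG counts are a description, and PRC2 binding was not measured.
Lamb1: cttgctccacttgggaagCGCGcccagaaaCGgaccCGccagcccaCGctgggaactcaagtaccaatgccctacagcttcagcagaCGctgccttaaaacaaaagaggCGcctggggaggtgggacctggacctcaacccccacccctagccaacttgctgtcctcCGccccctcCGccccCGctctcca
Lamb2: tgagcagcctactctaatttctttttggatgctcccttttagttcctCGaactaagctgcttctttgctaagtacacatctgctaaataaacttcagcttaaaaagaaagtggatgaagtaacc

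Lamc3 rose more than any other of the 37 genes, and Lamc1 did not pass. Lamc3 (chr2:31887291-31946539, mm10, plus strand) encodes the gamma3 chain, which takes the place of gamma1 in some laminins of nerve, brain and retina. It was 7.85, 2.32, 5.19, 2.80 and 3.74 in wildtype tumors 1 to 5 and 11.65, 12.52 and 12.44 in PRC2 loss. Wildtype tumor 1 was the highest of its group, and all wildtype tumors were below all PRC2 loss tumors. The fold was 226 (log2 difference 7.82, SE 1.15, limma adjusted p = 0.00172). It was 413 without wildtype tumor 1 and 105 when 16 was added on the linear scale before the log, so its size depends on the low wildtype values. With the replicate number as a block the call of Lamc3 was lost (limma adjusted p = 0.0596). An antisense gene, Gm13441, shares 6.27% of the Lamc3 exon bases, and strand use in the authors' counting is not given in the sources used here.

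Lamc1, the gamma1 chain of most laminins, was 13.50 to 14.56 in wildtype and 14.26 to 14.79 in PRC2 loss (log2 difference 0.58, limma adjusted p = 0.113). Of these 2 gamma chains, Lamc3 made up 1.87%, 0.0467%, 0.255%, 0.0818% and 0.0754% per kb of exon in wildtype tumors 1 to 5 and 13.7%, 22.0% and 27.7% in PRC2 loss. Lamc1 remained the more abundant gamma chain in every tumor.

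**Figure D4:**
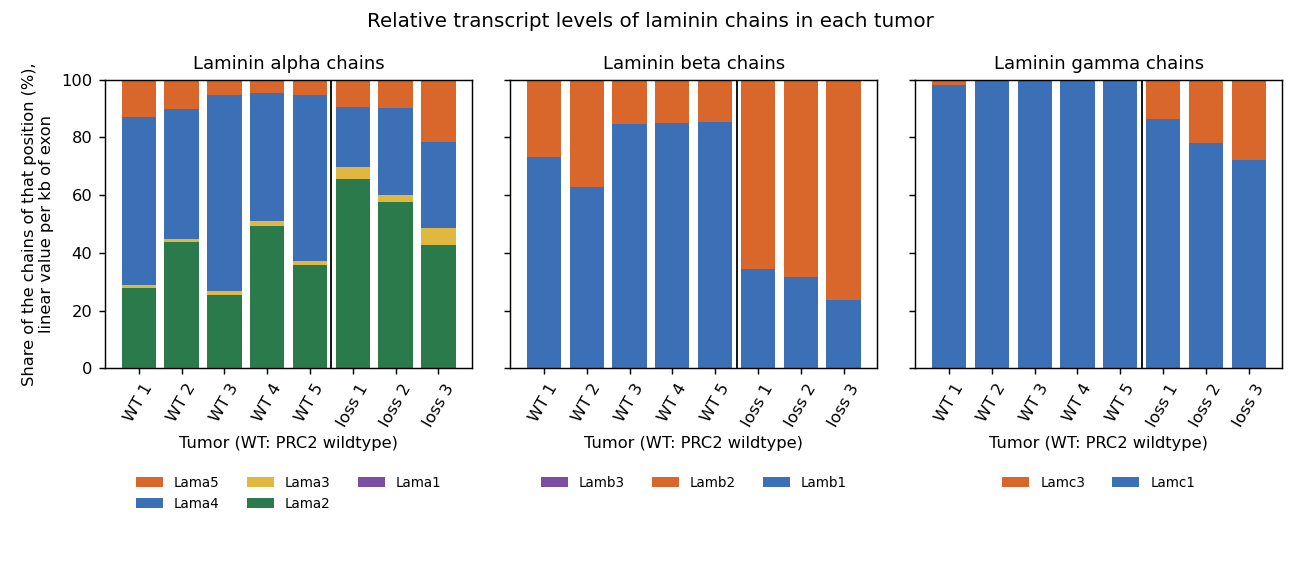
Stacked bars give each chain as a percent of the alpha, beta or gamma chains in a tumor, from linear values per kb of exon, with wildtype (WT) tumors left of the vertical line and PRC2 loss tumors right of it. Lamb2 takes 14.6% to 37.1% of the beta bar in wildtype and 65.6% to 76.4% in PRC2 loss, and Lamc3 becomes visible in the gamma bar of PRC2 loss tumors.

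Of the nidogens and basement membrane proteoglycans, Nid2 rose and Nid1, Hspg2 and Agrn did not pass. Nid2 (chr14:19751265-19811787, mm10), which links laminin to type IV collagen, was 11.38, 11.43, 10.84, 10.61 and 11.24 in wildtype and 12.41, 12.39 and 12.06 in PRC2 loss, 2.27-fold higher without overlap (log2 difference 1.18, SE 0.21, limma adjusted p = 0.00384). The protein-coding gene Rtraf, on the opposite strand, shares 8.45% of the Nid2 exon bases, and strand use in the authors' counting is not given. Nid1, a close relative of Nid2, was 13.66 to 15.02 in wildtype and 13.86 to 15.33 in PRC2 loss (log2 difference 0.15, limma adjusted p = 0.788). Hspg2, which encodes perlecan, differed by -0.19 (limma adjusted p = 0.579) and Agrn, which encodes agrin, by 0.63 (limma adjusted p = 0.225). Without wildtype tumors 1 and 2, which had the highest skeletal muscle markers, Agrn passed at a log2 difference of 1.08 (limma adjusted p = 0.0182). With a skeletal muscle covariate it passed at 0.77 (limma adjusted p = 0.0385).

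Of 29 other basement membrane genes, 9 rose (31%) and 4 fell (13.8%), where 16% and 19.6% of all genes did. Their median log2 difference was 0.68, beside -0.12 over all genes. The rises numbered 7 to 10 with 1 tumor left out, and the falls 1, 2 and 0 without PRC2 loss tumors 1, 2 and 3. The type IV collagen chains Col4a3 and Col4a4, which pair with Col4a5 in specialised basement membranes, rose from 3.42 to 9.52 and from 4.76 to 9.71 on the log2 scale (68.7-fold and 31.0-fold, limma adjusted p = 0.000399 and 0.000148). Fras1, a matrix protein of embryonic basement membranes, rose 23.6-fold (limma adjusted p = 0.0063), and Tinagl1, a laminin-associated matrix protein, 4.67-fold (limma adjusted p = 0.00332).

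Dag1 (chr9:108204634-108263958, mm10, minus strand) encodes dystroglycan, the receptor that ties laminin through dystrophin or utrophin to the cytoskeleton. Its values were 13.23, 13.63, 13.52, 13.18 and 12.82 in wildtype and 14.43, 14.52 and 13.73 in PRC2 loss. The groups did not overlap, although PRC2 loss tumor 3 lay only 0.10 log2 units above wildtype tumor 2. The difference was 1.93-fold (log2 difference 0.95, SE 0.24, limma adjusted p = 0.0171), and it did not pass when PRC2 loss tumor 1 (limma adjusted p = 0.0664) or PRC2 loss tumor 2 (limma adjusted p = 0.0711) was left out. Nor did it pass with the replicate number as a block (limma adjusted p = 0.13).

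Of 20 genes of the dystrophin-glycoprotein complex 8 rose (40%) and none fell, where 16% and 19.6% of all genes did. Their median log2 difference was 0.73, beside -0.12 over all genes. With 1 tumor left out 7 or 8 rose and at most 1 fell (without wildtype tumor 2). The largest rises among those named by the rule were in genes of the myelinating Schwann cell: Drp2, which joins dystroglycan to periaxin, rose from 7.86 to 13.69 (56.9-fold, limma adjusted p = 4.58e-05). Prx, which encodes periaxin, rose from 8.84 to 14.15 (39.6-fold, limma adjusted p = 3.51e-05). Sgcd, a sarcoglycan, and Utrn, which encodes utrophin, rose 3.26-fold and 2.65-fold (limma adjusted p = 0.000339 and 0.00102). The enzymes that put the laminin-binding sugar on dystroglycan showed few changes: of 18 measured, 2 rose (11.1%) and 2 fell (11.1%), below the 16% and 19.6% of all genes, with a median of -0.21. With 1 tumor left out 1 or 2 passed in each direction, and none rose with code stems averaged. Pomt2, which starts the chain, rose 1.45-fold, and Pomgnt1, another gene of this list, fell from 10.86 to 10.22 (limma adjusted p = 0.0147 and 0.00783).

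Of the laminin-binding integrin alpha subunits, Itga6 and Itga7 rose and Itga3 did not pass. Itga6 (chr2:71745616-71858416, mm10), whose product pairs with beta1 or beta4, was 11.97, 12.13, 12.08, 11.41 and 12.04 in wildtype and 13.51, 13.39 and 13.01 in PRC2 loss. No tumors overlapped, and wildtype tumor 4 stood below the rest of its group. Itga6 was higher in PRC2 loss (log2 difference 1.38, SE 0.20, limma adjusted p = 0.00145). Itga7 (chr10:128933818-128958282, mm10), whose product binds laminin in skeletal muscle and myelinating Schwann cells, was 10.42, 10.05, 9.36, 10.98 and 9.64 in wildtype and 11.93, 11.74 and 12.07 in PRC2 loss, 3.54-fold higher without overlap (log2 difference 1.82, SE 0.34, limma adjusted p = 0.00454). In the wildtype group tumor 4 was highest, followed by tumors 1 and 2, which had the highest skeletal muscle markers. Itga6 and Itga7 kept their calls with a skeletal muscle covariate and without wildtype tumors 1 and 2. How much of their values came from muscle was not tested.

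Itga3, the partner of beta1 in an epithelial and nerve laminin receptor, was 9.63, 10.15, 10.48, 11.41 and 11.46 in the wildtype tumors and averaged 9.68 ± 0.32 (SD, n = 3) in the PRC2 loss tumors. Wildtype tumor 1 lay within the range of the PRC2 loss tumors and wildtype tumors 2 to 5 above it. The log2 difference was -0.95 (limma adjusted p = 0.119), and it passed without wildtype tumor 1 (-1.20, limma adjusted p = 0.0401) and without wildtype tumors 1 and 2 (-1.44, limma adjusted p = 0.0119). Itga3 also passed with a skeletal muscle covariate (-1.07, limma adjusted p = 0.0421) and with array weights (-1.12, limma adjusted p = 0.0481). Within a tumor, the log2 value of Itga3 minus that of Itga6 averaged -1.30 ± 0.98 (SD, n = 5) in the wildtype group and -3.63 ± 0.54 (SD, n = 3) in the PRC2 loss group, without overlap (exact permutation p = 0.0179, adjusted over 8 ratios p = 0.0714). Itga7 against Itga6 shifted by 0.44 (exact permutation p = 0.518).

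Itgb1 and Itgb4 encode the beta partners of these subunits. Itgb1, shared by most laminin and collagen receptors, had the highest level per kb of exon of the integrin genes listed here, with mean log2 levels of 12.99 in wildtype and 12.74 in PRC2 loss, and its deposited values overlapped (14.53 to 15.40 and 14.53 to 14.89, limma adjusted p = 0.442). Itgb4 was 9.94, 10.58, 12.19, 12.97 and 10.81 in wildtype and 12.82, 13.50 and 13.54 in PRC2 loss, so that wildtype tumor 4 lay above PRC2 loss tumor 1. Its log2 difference of 1.99 (SE 0.65, 3.97-fold) passed narrowly (limma adjusted p = 0.0428), and the exact permutation p was 0.0536. The call was lost in 12 of 21 alternatives, among them each fit with 1 of the PRC2 loss tumors left out (limma adjusted p = 0.0766, 0.126 and 0.129 without tumors 1, 2 and 3) and those without wildtype tumors 1, 2 or 5 (limma adjusted p = 0.0661, 0.0731 and 0.0811). Without wildtype tumors 1 and 2 together the log2 difference was 1.30 (limma adjusted p = 0.0998). Against Itgb1 the shift of Itgb4 was 2.24 log2 units (exact permutation p = 0.0536, adjusted over 8 ratios p = 0.0857).

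**Figure D5:**
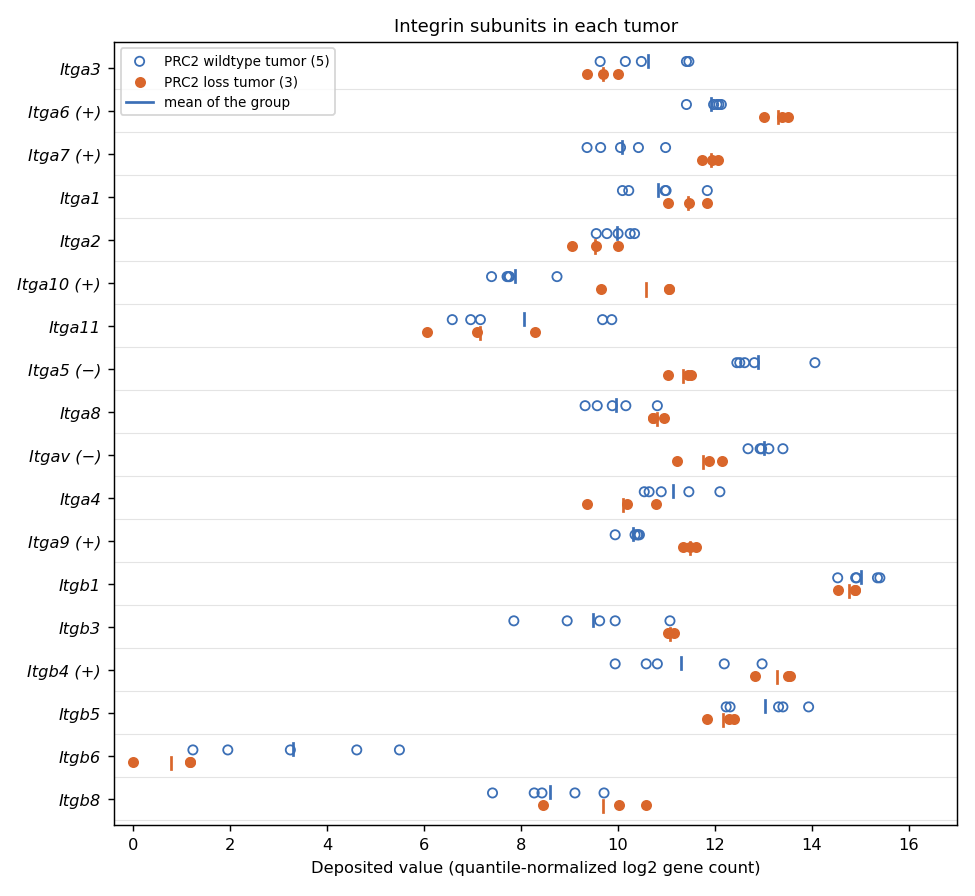
Deposited log2 values of the integrin subunits in each tumor, with open circles for wildtype, filled circles for PRC2 loss, vertical ticks for group means, and (+) or (−) for genes that passed higher or lower in PRC2 loss. Itga5 and Itgav lie lower in PRC2 loss without overlap, and Itgb4 is marked higher although wildtype tumor 4 (12.97) lies above PRC2 loss tumor 1 (12.82).

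Among the collagen-binding alpha subunits, all partners of beta1, Itga10 rose and Itga1, Itga2 and Itga11 did not pass. Itga10 (chr3:96645584-96664519, mm10), best known from cartilage, was 7.76, 7.39, 7.74, 7.71 and 8.74 in wildtype and 9.64, 11.04 and 11.06 in PRC2 loss. PRC2 loss tumor 1 was the lowest of its group and wildtype tumor 5 the highest of the other, with no overlap. The difference was 6.55-fold (log2 difference 2.71, SE 0.41, limma adjusted p = 0.00184). The annotation has another gene, Gm42957, on the same strand over 33.5% of the Itga10 exon bases, so reads of the pair may have been split and the value is uncertain. Itga1 and Itga2 differed by 0.61 and -0.46 (limma adjusted p = 0.258 and 0.202). Itga11, a collagen receptor of fibroblasts, was 9.87 and 9.68 in wildtype tumors 1 and 2, 6.58 to 7.16 in wildtype tumors 3 to 5 and 6.05 to 8.28 in PRC2 loss (limma adjusted p = 0.478), so its highest values lay in the tumors with the highest skeletal muscle markers.

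Of the alpha subunits that bind RGD motifs, Itga5 and Itgav fell and Itga8 did not pass. Itga5 (chr15:103344286-103366763, mm10), the fibronectin receptor with beta1, was 12.81, 12.51, 12.61, 12.45 and 14.06 in wildtype and 11.03, 11.45 and 11.51 in PRC2 loss, with wildtype tumor 5 above the rest and no overlap. It was 2.95-fold lower (log2 difference -1.56, SE 0.36, limma adjusted p = 0.0112), and the call was lost when PRC2 loss tumor 1 was left out (limma adjusted p = 0.0503) and when tumors sharing a code stem were averaged (limma adjusted p = 0.0602). Itgav (chr2:83724397-83806916, mm10), the alpha partner of beta1, beta3, beta5, beta6 and beta8, was 12.93, 12.68, 13.11, 12.96 and 13.40 in wildtype and 12.14, 11.88 and 11.22 in PRC2 loss. All PRC2 loss tumors were below all wildtype tumors, 2.41-fold lower (log2 difference -1.27, SE 0.23, limma adjusted p = 0.00419). With housekeeping centring the difference was -0.73 and did not pass (limma adjusted p = 0.0592). Nor did it pass with the replicate number as a block (limma adjusted p = 0.0841). Itga8, expressed in smooth muscle, was 9.32 to 10.81 in wildtype and 10.73 to 10.95 in PRC2 loss (log2 difference 0.85, limma adjusted p = 0.0608). Wildtype tumor 3 was its highest wildtype tumor, and without it the difference was 1.07 (limma adjusted p = 0.0101).

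The stretches upstream of Itga10 and Itgav are shown as examples of 1 alpha subunit that rose and 1 that fell. They are RefSeq sequences of GRCm38.p6 on the plus strand, 250 bases each, at chr3:96645334-96645583 and chr2:83724147-83724396, with CpG dinucleotides in capitals. Itga10 held 2 CpG and Itgav 18. Of the 26 genes with a RefSeq window, counts among those that rose ran from 0 (Lama2) to 36 (Dag1, whose other window held 21). Among those that fell they were 11 (Itga5) and 18 (Itgav), and Sdc2 had no window. The Lama2 window, chr10:27616943-27617192, lies inside the gene as annotated by GENCODE, as do those of Itga9 and Sdc4. Among genes that did not pass, so do the windows of Itgb8 and Lamb3 and 1 of 2 windows each of Agrn, Itga3 and Itgb6. With so few windows on the lower side, these counts cannot show whether CpG content divides the genes by direction.
Itga10: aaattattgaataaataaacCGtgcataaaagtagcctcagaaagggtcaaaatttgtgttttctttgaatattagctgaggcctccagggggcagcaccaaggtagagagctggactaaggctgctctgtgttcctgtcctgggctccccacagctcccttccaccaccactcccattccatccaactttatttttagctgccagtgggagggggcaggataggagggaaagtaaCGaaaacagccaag
Itgav: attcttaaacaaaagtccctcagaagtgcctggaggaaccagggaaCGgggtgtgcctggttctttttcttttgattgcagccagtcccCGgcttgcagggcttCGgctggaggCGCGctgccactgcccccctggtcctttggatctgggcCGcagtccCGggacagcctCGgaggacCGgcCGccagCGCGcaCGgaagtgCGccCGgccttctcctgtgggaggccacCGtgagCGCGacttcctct

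Of the alpha4 and alpha9 subunits, which bind vascular adhesion molecules, fibronectin and tenascin, Itga9 rose and Itga4 did not pass. Itga9 (chr9:118606690-118901003, mm10) was 10.40, 10.44, 10.35, 9.94 and 10.41 in wildtype and 11.61, 11.48 and 11.34 in PRC2 loss, 2.24-fold higher with small spread in each group (log2 difference 1.17, SE 0.14, limma adjusted p = 0.000865). Itga4, the leukocyte homing subunit that Schwann lineage cells also express, was 10.54 to 12.10 in wildtype and 9.35 to 10.78 in PRC2 loss (log2 difference -1.02, limma adjusted p = 0.0932). Macrophage marker means were 12.05 to 13.01 and 11.58 to 12.04, and T and NK cell means reached 8.63 in wildtype and at most 5.84 in PRC2 loss.

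None of the beta subunits that pair with alphav passed. Itgb3, known from platelets, endothelium and osteoclasts, was 9.62, 9.94, 8.95, 7.85 and 11.07 in wildtype and 11.16, 11.04 and 11.03 in PRC2 loss. Wildtype tumor 5 lay within the PRC2 loss range and the other 4 below it, and the log2 difference of 1.59 did not pass (limma adjusted p = 0.0733) but did without wildtype tumor 5 (1.99, limma adjusted p = 0.0165). Itgb6, the epithelial beta subunit, was 5.49, 4.61, 1.95, 1.23 and 3.24 in wildtype and 1.17 and 1.18 in PRC2 loss tumors 1 and 3, and was listed at 0 in PRC2 loss tumor 2 (limma adjusted p = 0.0734; 0.0336 without wildtype tumor 4). The groups of Itgb6 did not overlap, but only by 1.18 in PRC2 loss tumor 3 against 1.23 in wildtype tumor 4, both low values. The epithelial marker mean was highest in wildtype tumor 1 (6.61), which also had the highest Itgb6. Itgb5, the vitronectin receptor subunit, and Itgb8, which with alphav activates latent TGF-beta, differed by -0.87 and 1.10 (limma adjusted p = 0.122 and 0.191).

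The syndecans moved in different directions: Sdc1 and Sdc4 rose, Sdc2 fell and Sdc3 did not pass. Sdc1 (chr12:8771323-8793715, mm10), the syndecan of epithelia and plasma cells, was 12.28, 11.37, 11.94, 11.60 and 12.02 in wildtype and 13.19, 12.88 and 12.78 in PRC2 loss, 2.15-fold higher without overlap (log2 difference 1.11, SE 0.21, limma adjusted p = 0.00543). Its call was lost with the replicate number as a block (limma adjusted p = 0.0537). Sdc2 (chr15:32920723-33034935, mm10), the syndecan of mesenchymal cells, was 13.14, 13.64, 13.01, 12.68 and 13.30 in wildtype and 12.17, 12.20 and 11.92 in PRC2 loss. All PRC2 loss tumors were below all wildtype tumors, 2.08-fold lower (log2 difference -1.06, SE 0.21, limma adjusted p = 0.00577), and with housekeeping centring the difference of -0.52 did not pass (limma adjusted p = 0.119). Sdc4, a focal adhesion co-receptor, was 11.24 to 12.19 in wildtype and 12.03 to 12.62 in PRC2 loss, so wildtype tumor 5 overlapped. Its log2 difference of 0.72 passed narrowly (limma adjusted p = 0.0416, exact permutation p = 0.0536) and was lost in 12 of 21 alternatives, among them 7 of the 8 fits without 1 tumor, all but that without wildtype tumor 5, with limma adjusted p from 0.0511 to 0.15 in those 7. Sdc3, the syndecan of nerve and Schwann cells, was 12.99 to 13.96 and 13.66 to 14.17 (log2 difference 0.43, limma adjusted p = 0.174), and passed without wildtype tumors 1 and 2 (limma adjusted p = 0.0449).

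Of 29 heparan sulfate chain enzymes, which build and trim the chains that syndecans and perlecan carry, 5 rose (17.2%) and 4 fell (13.8%), near the shares of all genes (16% and 19.6%). The genes named next are single members of the list. Ext1, a subunit of the polymerase that extends the chain, fell from 12.98 to 11.33 (3.15-fold, limma adjusted p = 0.000982), while the sulfotransferase Hs3st3a1 rose from 4.36 to 8.38 (16.1-fold, limma adjusted p = 0.00278). Of 14 glypicans and other laminin receptors 5 rose (35.7%) and 2 fell (14.3%), with 3 rises without PRC2 loss tumor 3 and 1 fall without PRC2 loss tumor 1, PRC2 loss tumor 3 or wildtype tumor 5. Gpc3, a glypican of embryonic tissue, rose from 9.11 to 14.15 (32.9-fold, limma adjusted p = 0.00422). Bcam, a receptor for the laminin alpha5 chain, rose from 8.28 to 11.72 (10.9-fold, limma adjusted p = 0.00171), in the same direction as Lama5. Cd47, an integrin-associated membrane protein, fell 1.61-fold (limma adjusted p = 0.00818).

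Of 33 integrin adaptor and focal adhesion genes 5 rose (15.2%) and 8 fell (24.2%), near the shares of all genes (16% and 19.6%), with a median log2 difference of -0.17 beside -0.12 over all genes. The tensin genes Tns1 and Tns2, which link integrin tails to actin, rose 5.90-fold and 2.19-fold (limma adjusted p = 0.000238 and 0.00167). Src, the kinase of focal adhesions, fell from 11.83 to 10.28 (2.91-fold, limma adjusted p = 0.000768), and Lims1, a scaffold of the integrin-linked kinase complex, fell 1.70-fold (limma adjusted p = 0.00218). Of 9 leukocyte and platelet integrin genes 2 rose (22.2%) and 4 fell (44.4%), with a median of -1.25, and 1 rose without PRC2 loss tumor 1 or 3. Itgam, the myeloid integrin subunit CD11b, fell from 12.08 to 10.35 (limma adjusted p = 0.000701), where 7 of 12 macrophage markers were lower and 1 higher in PRC2 loss.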

How the data were processed

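RNA was extracted with Trizol and made into TruSeq poly-A libraries, per the labels' protocols. Trim Galore, STAR 2.6, Partek 7.0 and build mm10 were used, per the submitters' processing notes. The authors deposited quantile-normalized log2 gene counts. The annotation, counting method, strand use and log offset: not given in the sources used here. No library totals are in the table. All tumors had a median of 8.46 to 8.47 and a highest value of 18.764, with 2686 to 3372 genes at 0 in wildtype and 1822 to 2113 in PRC2 loss.

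Tumors were grouped by title, and columns matched by description. After leaving out 136 constant genes, 20807 were tested with limma 3.58.1 (R 4.3.3), two-sided, with a trended variance prior, Benjamini-Hochberg adjustment over those genes and a call at 0.05. An unadjusted p below 0.05 was found for 9578 genes, among them 21 of the 37 (16 higher, 5 lower). Ratios were tested by exact permutation over 56 splits, and that test is also given beside limma for Itgb4 and Sdc4. No call of a gene rests on it. All 37 genes could be named, and up to 4 of each related list, by smallest p among those that passed, then by highest mean. The 37 genes and the lists were chosen with earlier results of these data known. Nothing shows that the tumors of a group came from different mice throughout, and there are 3 wildtype and 2 PRC2 loss code stems. The p-values therefore rest on the spread between these tumors, not between mice. The 56 splits also treat tumors that share a code stem as separate.

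In simulated data for this comparison (20807 genes), 46%, 80%, 100% and 94% of 50 genes shifted by 1, 2, 3 and 4 log2 units were recovered, with 6 calls among 20607 unchanged genes. Shifted genes were drawn only from those at or above the median mean value, and simulated tumors were independent. These rates therefore do not cover lower genes, such as Lama3 and Lamc3, or tumors that share a code stem. Far fewer genes were shifted than were called in the data. Positions and exon lengths came from GENCODE release M21 (mm10), and upstream sequences from RefSeq (GRCm38.p6), which held 26 of the 37 genes. Exon overlap with other genes was at most 8.45% apart from Itga10. Replicate numbers did not pair the tumors: correlations of deviations were -0.207, 0.146 and -0.0951 for numbers 1, 2 and 3. The 21 alternatives were a low-value filter, pseudocounts of 1 and 16, other variance priors, array weights, other centrings, blocks by replicate number or code stem, averaged code stems (random-block correlation 0.345), a skeletal muscle covariate, each tumor left out, and, chosen after seeing the data, wildtype tumors 1 and 2 left out.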

Additional observations from a re-analysis of the deposited data

Results flagged for a closer look

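For the 37 genes and the 8 ratios, the 5 wildtype tumors were examined for a tumor far from the rest, and 4 of 45 sets held one. Chance gives about 1 in 20. The lowest Itga6 value, 11.41 in wildtype tumor 4, lay below the next at 11.97. The lowest Itga9 value, 9.94, was in the same tumor, with the next at 10.35. The highest Itga10 value, 8.74 in wildtype tumor 5, lay above the next at 7.76, and the highest Itga5 value, 14.06 in the same tumor, above the next at 12.81. Itga6, Itga9 and Itga10 kept their calls without either tumor, and Itga5 was still called without wildtype tumor 5.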

How the results depend on the processing

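Over 355 alternative values of the 17 genes that passed, none changed sign and 35 lost the call. Of 416 values of the other 20 genes, 22 gained a call and 8 changed sign. Of the 37 genes, 9 were higher and 2 lower with the replicate number as a block, which does not pair the tumors, and with it 1129 of all genes were higher and 774 lower. Fewer residual degrees of freedom remain in that fit. In it Lama5, Lamc3, Dag1, Itgav, Itgb4, Sdc1 and Sdc4 lost the call, and Itgb3 gained a call. The lower count was 5 with array weights, 5 with a skeletal muscle covariate and 1 with housekeeping centring. Over all genes, higher and lower calls numbered 1731 and 2545 with low genes left out (10472 tested), 7143 and 1691 with housekeeping centring, and 2113 and 2113 with code stems averaged. Leaving out 1 tumor gave 11 to 14 higher and 2 to 4 lower among the 37, and 2555 to 3413 and 2972 to 4284 over all genes. The ratio shifts then ran from 1.35 to 1.92 (Lama2 to Lama4), -0.52 to 0.40 (Lama2 to Lama5), -2.11 to -1.52 (Lama4 to Lama5), 2.97 to 3.50 (Lamb2 to Lamb1), 1.93 to 2.78 (Itgb4 to Itgb1), 0.22 to 0.79 (Itga7 to Itga6), -2.63 to -2.0 (Itga3 to Itga6) and -2.30 to -0.96 (Itga11 to Itga1). Of 294 alternative counts in the related lists, 59 moved by over 1.5 times. Per kb of the longest transcript in place of all exons, mean shares were 0.275% in place of 0.484% (Lama1, wildtype), 0.783% in place of 1.38% (Lama3, wildtype) and 32.6% in place of 27.1% (Lama4, PRC2 loss), beside the Lama5 values given above. In PRC2 loss they were 40.2% in place of 29.9% for Lamb1 and 59.7% in place of 70.1% for Lamb2. Except where a centring or fewer tumors made the change, the cause was not tested. Depth is unknown.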
